A study of Mus musculus with 2 samples.

Results

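Gdf15, the gene for growth differentiation factor 15, was followed through every cell class of kidneys from 5-week-old mice, as 1 of the 31053 genes in the deposited count matrices. It was chosen by its symbol, and its UMIs (unique molecular identifiers, each marking 1 captured transcript) were read per cell and per marker-defined class. Single-cell 3' RNA profiles came from 1 Kif3aΔTub library, labelled knockout and disease, and 1 WT library, labelled control. Kif3a encodes a motor subunit needed to build the primary cilium, while the cells in which it is deleted, the Cre driver and the number of mice behind each library are not given in the sources used here. Kidneys, 1 per mouse, were dissociated in the cold with a bacterial protease, and dead cells were removed before capture. With 1 library per genotype no difference has a replicate check, no test was possible, and the 95% intervals given here cover counting error only.

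GDF15 is a distant member of the TGF-beta family that is made as a precursor, cut by proprotein convertases and secreted. Circulating GDF15 acts on GFRAL, a receptor of the hindbrain that signals through RET and lowers food intake, and the hormone is linked to anorexia and weight loss in chronic disease. Its transcript is induced in stressed cells, with the transcription factors ATF4 and CHOP of the integrated stress response and p53 as the best known activators.

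The kept set held 7066 Kif3aΔTub cells and 4317 WT cells, similar in depth at a median of 7799 UMIs in Kif3aΔTub and 7771 UMIs in WT cells. Mitochondrial transcripts took a median of 7.54% of UMIs in Kif3aΔTub cells and 26.8% in WT cells, so the libraries differed in this sign of RNA quality, and its part in the differences below was not tested. The libraries shared 17 cell barcodes among the kept cells. Kif3a itself stood at 12.2 (11.5 to 13.01) CPM (UMIs per 1000000 UMIs of the cells summed) in Kif3aΔTub cells and at 10.3 (9.37 to 11.3) CPM in WT cells. In principal-like cells it stood at 10.6 (9.50 to 11.9) CPM in Kif3aΔTub and 23.8 (15.6 to 34.9) CPM in WT. A 3' count can include transcripts with a deletion elsewhere in the gene, so it does not check the deletion.

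Gdf15 (ENSMUSG00000038508) lies on the minus strand of mouse chromosome 8 at chr8:70629393-70632456 (GRCm38, which is mm10). It spans 3064 bases, has 2 annotated transcripts of 2 and 3 exons, and overlaps 0 other annotated genes, so its reads are not shared with a neighbour. The 250 bases upstream of its more distal start site are shown because ATF4 and p53 are the activators most often named for this gene. Below it stand 30-base pieces of promoters of list genes described later, with the matched motif in capitals. All are from RefSeq (GRCm38.p6), 5′ to 3′ on the strand of the gene.
Gdf15, chr8:70632457-70632706, minus strand: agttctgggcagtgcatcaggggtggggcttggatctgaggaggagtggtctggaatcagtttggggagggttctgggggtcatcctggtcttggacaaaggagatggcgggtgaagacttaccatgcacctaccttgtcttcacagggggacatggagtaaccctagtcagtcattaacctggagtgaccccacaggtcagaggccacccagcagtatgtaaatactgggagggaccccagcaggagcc
Cdkn1a, chr17:29090896-29090925, plus strand, p53 decamer: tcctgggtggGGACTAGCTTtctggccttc
Ccng1, chr11:40755452-40755481, minus strand, p53 decamer: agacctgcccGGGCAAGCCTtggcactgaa
Bax, chr7:45467080-45467109, minus strand, p53 decamer: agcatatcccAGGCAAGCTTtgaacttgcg
Atf3, chr1:191183425-191183454, minus strand, ATF4-C/EBP core: ccttctcgcacTTGCATCAccaagtccgcg
Chac1, chr2:119351038-119351067, plus strand, ATF4-C/EBP core: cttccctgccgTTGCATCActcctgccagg

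Searched on both strands, 0 of the 2 Gdf15 start-site windows (250 bases before to 50 after) held the ATF4-C/EBP composite core TGATGNAA, the cyclic AMP response element TGACGTCA, the AP-1 motif TGANTCA, the GC box GGGCGG, the TATA motif TATAAA or the p53 decamer. The pieces above show TGATGNAA as its reverse complement. Of all 32851 promoter windows, 3.97% held TGATGNAA and 8.36% held the p53 decamer. Among the windows of genes on the lists used below, TGATGNAA stood in those of 10 of 23 integrated stress response genes and 0 of 19 p53 response genes, and the p53 decamer in those of 1 of 23 and 12 of 19. A match describes letters only, and its absence from these windows says nothing about binding of either factor to the gene.

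Gdf15 was carried mainly by tubule epithelium, and at far higher levels in the Kif3aΔTub library. It gave 15328 UMIs or 194 (191 to 197) CPM in Kif3aΔTub cells and 440 UMIs or 10.4 (9.42 to 11.4) CPM in WT cells. At least 1 Gdf15 UMI was found in 2250 Kif3aΔTub cells (31.8%) and in 280 WT cells (6.49%), and the richest single cell held 170 UMIs in Kif3aΔTub and 41 in WT.

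**Figure D1:**
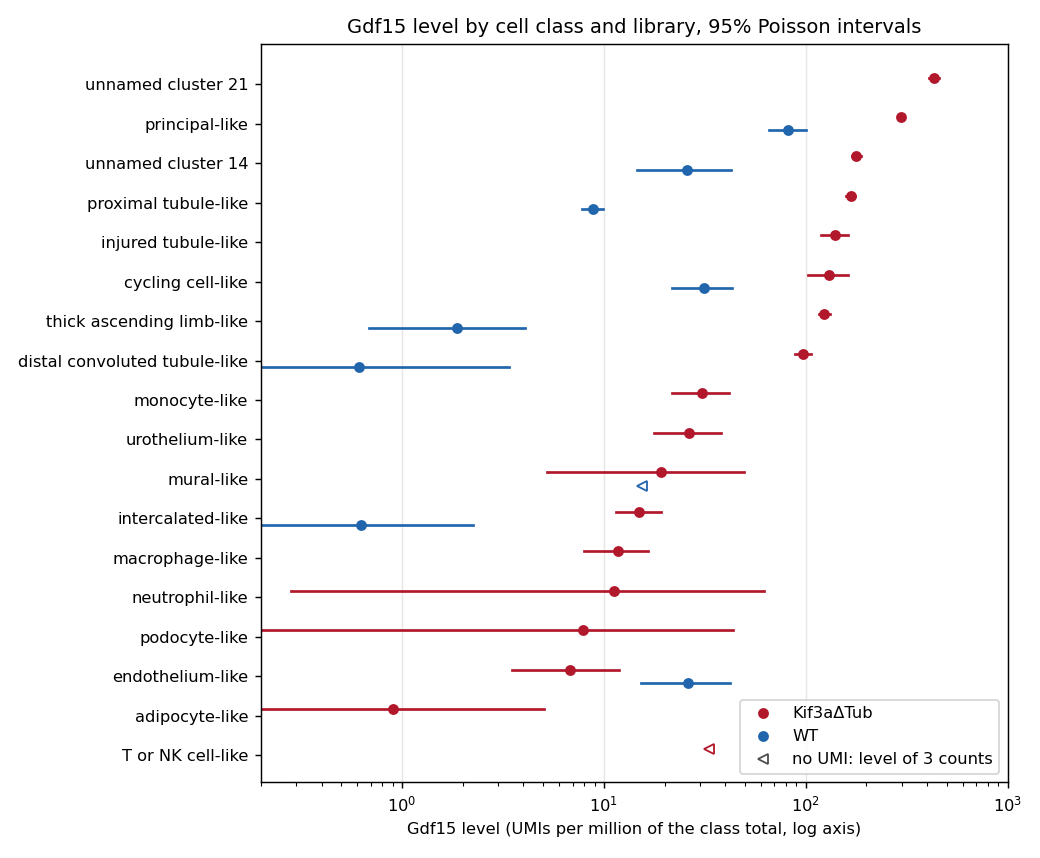
Gdf15 level (CPM over the class, log axis) in each class with at least 20 cells, with Kif3aΔTub above WT, points for the sum over cells, lines for 95% Poisson intervals and open triangles for the level that 3 counts would give where none was found. Kif3aΔTub tubule classes other than intercalated-like sit between 97.1 and 298 CPM, and WT principal-like cells at 81.6 CPM are the highest WT class.

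In the Kif3aΔTub kidney the collecting duct led. Principal-like cells, which reabsorb water and sodium under vasopressin and aldosterone, held 8907 of the library's Gdf15 UMIs in 2372 cells, a level of 298 (292 to 304) CPM. They carried 58.1% (57.3 to 58.9) of its Gdf15 UMIs with 33.6% of its cells. Proximal tubule-like cells, which reclaim most of the filtrate, followed at 167 (159 to 175) CPM and 11.5% of the UMIs with 14.3% of the cells. With doublets kept, clustering left this name to only 183 Kif3aΔTub cells, and their share of the UMIs was 0.444%. Thick ascending limb-like cells stood at 124 (116 to 132) CPM and distal convoluted tubule-like cells at 97.1 (88.5 to 106) CPM, and these 4 intervals did not overlap each other. Injured tubule-like cells, led by Tagln, Vim, Cp and Akap12, reached 139 (119 to 163) CPM in 97 cells, between proximal tubule-like and thick ascending limb-like cells and with an interval that overlapped both.

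Intercalated-like cells, the acid and base secretors that lie among principal cells in the same duct, stood far lower at 15.0 (11.5 to 19.3) CPM. Macrophages and endothelium of the Kif3aΔTub kidney also stood low. Macrophage-like cells gave 32 UMIs in 610 cells, or 11.7 (8.02 to 16.5) CPM, and endothelium-like cells 12 UMIs in 474 cells, or 6.83 (3.53 to 11.9) CPM. Monocyte-like cells reached 30.5 CPM, above intercalated-like cells, but 30 of their 39 UMIs lay in 1 cell. Urothelium-like cells stood at 26.4 (17.7 to 37.9) CPM, and mural-like, neutrophil-like, podocyte-like and adipocyte-like cells held between 1 and 4 UMIs each. No UMI was found in 36 T or NK cell-like cells, where 3 counts would give 33.1 CPM.

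Clusters that carried markers of more than 1 type were left unnamed, and both of these stood high. Cluster 21 of the Kif3aΔTub library, led by histone and mitotic genes together with C1q genes of macrophages, had the highest level of any group at 433 (408 to 458) CPM in 154 cells. A split by C1q UMIs, chosen after its values were seen, put 561 (529 to 594) CPM in the 104 cells with under 10 C1q UMIs and 25.7 (15.0 to 41.2) CPM in the 50 cells with more. Cells below that limit held a median of 34 UMIs of the principal cell markers Aqp2, Fxyd4 and Hsd11b2, against 1 in the others. Cluster 14, which carried principal and intercalated markers together at a median of 27251 UMIs per cell, stood at 178 (170 to 187) CPM in 301 Kif3aΔTub cells. Whether its cells are doublets missed by Scrublet was not tested.

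Free RNA gives UMIs of an abundant transcript to cells that do not make it, so shares of cells were read against endothelium-like cells and after thinning each cell to 2000 UMIs. Unthinned, 49.0% of Kif3aΔTub principal-like cells held a Gdf15 UMI at a median depth of 9286.5 UMIs, against 2.11% of Kif3aΔTub endothelium-like cells at a median of 2703.5 UMIs. At the common depth the shares were 28.9% (26.8 to 31.0) of principal-like, 20.3% (17.7 to 23.1) of proximal tubule-like, 9.48% (7.18 to 12.2) of thick ascending limb-like and 9.30% (6.63 to 12.6) of distal convoluted tubule-like cells. The last pair did not differ beyond counting error. Endothelium-like cells gave 0.893% (0.185 to 2.59), macrophage-like cells 1.73% (0.749 to 3.38) and intercalated-like cells 2.51% (1.21 to 4.57), and these 3 intervals overlapped. Thinning left out 474 principal-like and 138 endothelium-like Kif3aΔTub cells as too shallow.

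The ratio of Gdf15 to the principal markers Aqp2, Fxyd4 and Hsd11b2 was set beside these levels as a description, and which cells shed free RNA was not measured. In Kif3aΔTub principal-like cells there were 31.2 Gdf15 UMIs per 1000 UMIs of these markers. In Kif3aΔTub intercalated-like cells there were 40.1, in endothelium-like cells 29.5, in distal convoluted tubule-like cells 55.8 and in macrophage-like cells 82.7. Kif3aΔTub proximal tubule-like cells gave 1230, thick ascending limb-like cells 1311 and injured tubule-like cells 1905. Proximal, thick ascending limb-like and injured cells thus held far more Gdf15 for their principal markers than principal-like cells did, while the ratios of intercalated-like and endothelium-like cells lay near the principal-like one. In WT the ratio was 3.60 in principal-like, 4.54 in intercalated-like and 2833 in endothelium-like cells. The WT intercalated value rested on 2 Gdf15 UMIs and the endothelial value on 17.

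Within a class the transcript was unevenly spread. In Kif3aΔTub principal-like cells, 1209 cells held no Gdf15 UMI, 292 held 1, 355 held 2 to 4, 226 held 5 to 9 and 290 held 10 or more. These last 290 cells, 12.2% of the class, held 68.4% of its Gdf15 UMIs. In thick ascending limb-like cells 26 cells (4.53%) held 68.3% of the UMIs, and in proximal tubule-like cells 44 cells (4.34%) held 46.8%. Of 2951 WT proximal tubule-like cells, 174 held 1 UMI, 34 held 2 to 4, 2 held 5 to 9 and 0 held 10 or more.

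**Figure D2:**
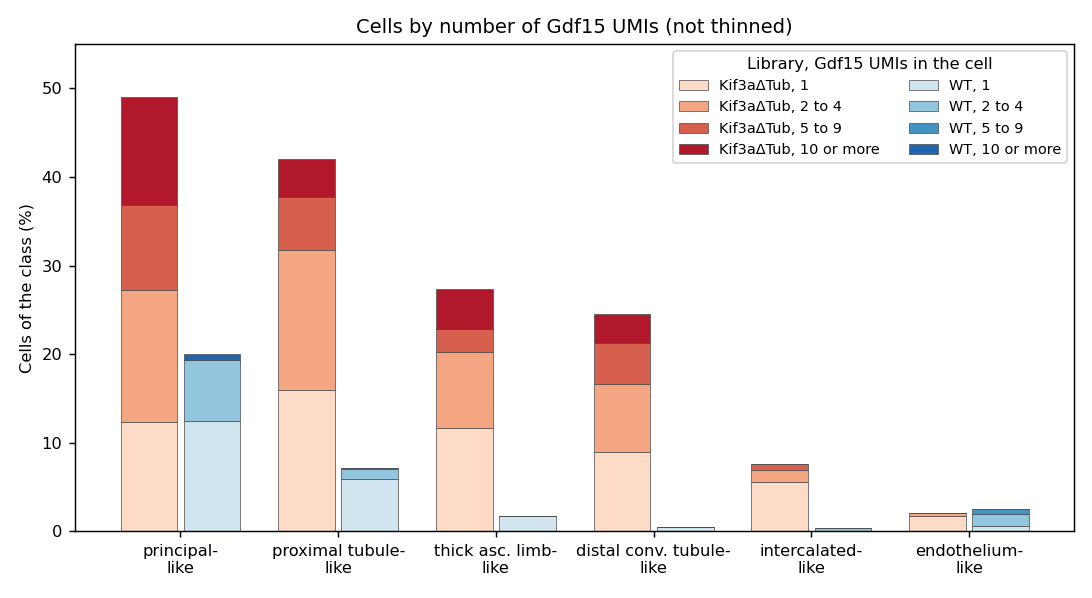
Share of cells of a class (percent, y axis) by number of Gdf15 UMIs in the cell, stacked from 1 UMI at the bottom to 10 or more at the top, for Kif3aΔTub on the left and WT on the right of each pair, without thinning. Cells with 10 or more UMIs make up 12.2% of Kif3aΔTub principal-like cells and 0.625%, 1 cell, of WT principal-like cells.

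The clusters that made up a class differed between libraries, so levels were also read cluster by cluster. Kif3aΔTub principal-like cells lay mostly in cluster 1, led by Lcn2 and Krt18 as well as Aqp2, and in cluster 2, led by Aqp2 and Fxyd4, at 321 (312 to 331) and 288 (279 to 297) CPM. Cluster 9, shallow principal-like cells with a median of 893 UMIs, stood at 247 (210 to 289) CPM, and cluster 19, with the connecting tubule genes Calb1 and S100g, at 115 CPM. Kif3aΔTub proximal tubule-like cells lay mostly in cluster 3, with 821 of their 1013 cells and 173 (165 to 182) CPM. Thick ascending limb-like cells lay in cluster 6 at 128 (120 to 137) CPM, while 24 Kif3aΔTub cells that fell into cluster 13, which held 325 of the 338 WT cells of this class, had no Gdf15 UMI. In those 24 cells 3 counts would give 11.4 CPM.

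Set against WT, Gdf15 was higher in each of the 5 Kif3aΔTub tubule classes with at least 100 cells in both libraries, and lower in endothelium. In Kif3aΔTub distal convoluted tubule-like cells it gave 467 UMIs in 415 cells, or 97.1 CPM, against 1 UMI in 213 WT cells, or 0.612 CPM, a log2 ratio of 6.73 (4.83 to 12.62). These were different kinds of cell: 414 of the Kif3aΔTub cells lay in cluster 10, led by Klk1, S100g and Calb1 and with 9 connecting tubule and principal markers passing against 5 distal convoluted ones, and 170 of the WT cells lay in cluster 20, led by Slc12a3, Egf and Pvalb. Only 15 of 10342 genes measured there had a higher ratio, in a class where 23.9% of genes were at least 2-fold higher, 3.82% at least 2-fold lower and the median gene stood at 0.51. In Kif3aΔTub thick ascending limb-like cells it gave 902 UMIs or 124 CPM, against 6 UMIs or 1.88 CPM in WT, a log2 ratio of 5.92 (4.91 to 7.49). There 23.5% of genes were at least 2-fold higher and 4.66% lower, the median gene stood at 0.46, and 0.611% of genes had a higher ratio. The clusters differed here too, since 550 of the 574 Kif3aΔTub cells lay in cluster 6 and 325 of the 338 WT cells in cluster 13. Within cluster 13 the 24 Kif3aΔTub cells held no Gdf15 UMI, and the WT cells stood at 1.95 CPM. Proximal tubule-like cells had 1767 UMIs or 167 CPM in Kif3aΔTub and 268 UMIs or 8.80 CPM in WT, a log2 ratio of 4.24 (4.06 to 4.43), where 13% of genes were at least 2-fold higher and 4.14% lower. Of the 1013 Kif3aΔTub cells of this class, 821 lay in cluster 3, which held only 10 WT cells. Intercalated-like cells had 61 UMIs or 15.0 CPM in Kif3aΔTub and 2 UMIs or 0.624 CPM in WT, a log2 ratio of 4.28 (2.67 to 7.67), where 10.2% of genes were at least 2-fold higher and 3.3% lower. In both libraries the Gdf15 of intercalated-like cells per principal marker UMI lay near that of principal-like cells. The part of free RNA in the intercalated ratio was not tested. The median gene stood at 0.24 in proximal tubule-like and 0.27 in intercalated-like cells, so scaling to the median gene would lower these ratios by that much. Median mitochondrial shares stood at 11.6% in Kif3aΔTub and 36.4% in WT distal convoluted tubule-like cells, and at 7.21% in Kif3aΔTub and 34.3% in WT thick ascending limb-like cells. With cells under 25% mitochondrial UMIs alone, the distal convoluted ratio was 4.18 and the proximal ratio 4.01. With doublets kept, 183 Kif3aΔTub cells kept the proximal name and the proximal ratio was 3.53.

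Principal-like cells showed the smallest of the 5 tubule ratios and the highest level in both libraries among the classes compared. The level was 298 CPM in Kif3aΔTub and 81.6 (65.5 to 100.4) CPM in WT, a log2 ratio of 1.86 (1.57 to 2.19), where 12.6% of genes were at least 2-fold higher and 7.93% lower. In WT, 1 cell held 41 of the 89 WT UMIs. Without the highest cell of each library the levels were 294 CPM in Kif3aΔTub and 44.5 CPM in WT, a log2 ratio of 2.71. The cells compared were also of different kinds, since 131 of 160 WT cells lay in cluster 19 and only 90 of 2372 Kif3aΔTub cells did. Within cluster 19 the level was 115 CPM in Kif3aΔTub and 85.1 CPM in WT, a log2 ratio of 0.43 (0.02 to 0.86), or 94.2 CPM in Kif3aΔTub and 44.1 CPM in WT without the highest cells.

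Where 1 cluster held at least 30 cells of each library, the direction could be read among like cells. Early proximal tubule cluster 0, led by Slc34a1 and Slc5a2, stood at 53.3 CPM in 33 Kif3aΔTub cells and 9.02 CPM in 918 WT cells, a log2 ratio of 2.60 (1.74 to 3.30). Cluster 7 of shallow proximal cells stood at 111 CPM in Kif3aΔTub and 4.71 CPM in WT. Distal cluster 10 stood at 97.1 CPM in 414 Kif3aΔTub cells and at 0 in 43 WT cells, which is at least 8.67-fold higher when 3 WT counts are allowed. Type A intercalated cluster 12 gave 13.01 CPM in Kif3aΔTub and 1.38 CPM in WT, and type B cluster 16 gave 19.3 CPM in Kif3aΔTub against 0 in WT, at least 11.3-fold higher. The part of free RNA in these intercalated values was not tested. Proximal tubule cells in cycle, cluster 22, had 130 CPM in 31 Kif3aΔTub cells and 31.2 CPM in 71 WT cells, a log2 ratio of 2.05 (1.47 to 2.67). This cluster ranked next to principal-like cells among the named WT classes. Among the clusters with at least 30 cells of each library, only the endothelial cluster 17, led by Mgp and Sox17, went the other way, at 9.27 CPM in Kif3aΔTub and 46.3 CPM in WT.

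In endothelium-like cells as a class, 12 UMIs or 6.83 CPM in Kif3aΔTub stood against 17 UMIs or 26.2 (15.3 to 41.95) CPM in WT, a log2 ratio of −1.92 (−3.14 to −0.79). The 17 WT UMIs lay in 4 of 155 cells, with 9 in 1 cell, and without that cell the WT level was 12.5 CPM. No Kif3aΔTub endothelium-like cell held more than 2 UMIs. In this class 4.92% of genes were at least 2-fold higher in Kif3aΔTub and 3.62% lower. When doublets were kept the ratio turned to 0.55.

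The stress lists used below also differed between the libraries as a whole. Of p53 response genes measured in principal-like cells, 14 of 24 were at least 2-fold higher in Kif3aΔTub, where 12.6% of all genes were, with a median log2 ratio of 1.20. The counts were 15 of 23 in proximal tubule-like cells (13% of all genes), 15 of 21 in thick ascending limb-like (23.5%), 10 of 18 in distal convoluted tubule-like (23.9%) and 8 of 18 in intercalated-like cells (10.2%). In endothelium-like cells the count was 1 of 18, near the 4.92% of all genes. Cdkn1a stood at 150.2 CPM in Kif3aΔTub and 6.42 CPM in WT principal-like cells, and at 167 CPM in Kif3aΔTub and 18.1 CPM in WT intercalated-like cells, a class with little Gdf15 in either library. Integrated stress response genes were at least 2-fold higher in 7 of 23 members in principal-like, 10 of 22 in proximal tubule-like and 13 of 22 in intercalated-like cells, against the same 12.6%, 13% and 10.2% of all genes. They were so in 12 of 22 in thick ascending limb-like (23.5%), 12 of 22 in distal convoluted tubule-like (23.9%) and 2 of 15 in endothelium-like cells (4.92%).

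Genes whose levels followed Gdf15 most closely across classes were named by Spearman rank correlation, as a description over points that share a library. Over the 26 class-by-library points with at least 30 cells and 11833 genes, the closest was Uxs1, an enzyme that makes UDP-xylose, at a rho of 0.87, then Dab1, an adaptor of reelin signalling, at 0.84, and Kat14 at 0.80. Uxs1 stood at 33.2 CPM in Kif3aΔTub principal-like and 24.8 CPM in WT principal-like cells, and at 30.8 CPM in Kif3aΔTub proximal tubule-like and 13.9 CPM in WT proximal tubule-like cells. Over the 18 points of the Kif3aΔTub library alone Dab1 and Bex2 led, both at 0.91, and Dab1 stood at 36.7 CPM in Kif3aΔTub principal-like cells and 44.0 CPM in WT principal-like cells, which is not the Gdf15 difference between libraries. None of the 10 closest genes in either ranking was a member of the integrated stress response or p53 response list.

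To see which stress genes accompany the transcript, cells with a Gdf15 UMI were set against cells without one inside each class of 1 library. List genes had been kept out of the clustering. Cells with a UMI were deeper, at a median of 13395 against 6170 UMIs in Kif3aΔTub principal-like and 11430 against 5548 UMIs in Kif3aΔTub proximal tubule-like cells, so levels are in CPM without Gdf15, and the mitochondrial share was a median of 8.69% in distal convoluted tubule-like cells with and 14.9% in those without Gdf15. Depth within a class was a median of 12582 UMIs with and 7978 without in thick ascending limb-like, 11664 with and 8209 without in distal convoluted tubule-like, and 15626 with and 7493 without in WT proximal tubule-like cells. Where a comparison within 5 strata of depth moved a p53 or integrated stress count by over 1.5 times, it is given too. A gene was counted as higher or lower at 1.5-fold.

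Members of the p53 response list were higher with Gdf15 in all 4 tubule classes compared in the Kif3aΔTub kidney. In proximal tubule-like cells 13 of 22 measured p53 response genes were higher in cells with a Gdf15 UMI, where 7.75% of all genes were, and 0 were lower, where 2.87% of all genes were. Cdkn1a, the cyclin-dependent kinase inhibitor p21, stood at 162 CPM in cells with and 29.3 CPM in cells without a Gdf15 UMI, a log2 ratio of 2.46 (2.20 to 2.73). Phlda3, an inhibitor of AKT, stood at 29.1 CPM with and 6.04 CPM without, a log2 ratio of 2.24 (1.68 to 2.90). Btg2, an antiproliferative gene, stood at 63.8 CPM with and 12.5 CPM without, and Eda2r at 5.04 CPM with and 0.647 CPM without. The list's median log2 ratio was 0.69, against 0.07 over all genes.

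Principal-like cells showed the same list with smaller ratios. Of 24 measured p53 response genes, 8 were higher in cells with a Gdf15 UMI, where 2.58% of all genes were, and 0 were lower, where 4.63% of all genes were. Cdkn1a stood at 180 CPM with and 74.7 CPM without, a log2 ratio of 1.27 (1.15 to 1.39), Phlda3 at 68.6 CPM with and 28.9 CPM without, and Ccng1, cyclin G1, at 106 CPM with and 70.2 CPM without. Mdm2, which marks p53 for degradation and is itself a p53 target, stood at 34.9 CPM with and 29.1 CPM without, a log2 ratio of 0.26 (0.05 to 0.48) that is under the 1.5-fold limit. Inside cluster 1 alone 7 of 24 members were higher and 0 lower, where 3.85% of all genes were higher and 4.64% lower. Inside cluster 2 alone 7 of 22 were higher and 0 lower, where 4.31% of all genes were higher and 3.09% lower. Among the shallow cells of cluster 9, with 55 Gdf15-bearing cells, 8 of 13 were higher and 2 lower, where 16.4% of all genes were higher and 20.6% lower. Counts in cluster 9 are small and single cells weigh heavily in them, since 70 of the 77 Gadd45g UMIs and all 76 Col3a1 UMIs of its Gdf15-bearing cells came from 1 cell each.

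In thick ascending limb-like cells 6 of 21 p53 response genes were higher and 1, Pmaip1, was lower, where 6.85% of all genes were higher and 4.96% lower. Within depth strata 10 of 21 were higher. Psrc1, a spindle protein gene, stood at 15.8 CPM with and 2.70 CPM without, Phlda3 at 40.4 CPM with and 10.6 CPM without, and Cdkn1a at 248.6 CPM with and 144 CPM without. In distal convoluted tubule-like cells 8 of 18 were higher and 0 lower, where 11% of all genes were higher and 4.57% lower, with Cdkn1a at 181 CPM with and 67.6 CPM without and Plk2 at 11.7 CPM with and 3.54 CPM without. Cluster 14 had 6 of 21 members higher and 1 lower, where 7.25% of genes were higher and 6.45% lower. Cluster 21 had 12 of 22 higher and 2 lower, where 24.1% of genes were higher and 15.5% lower. That cluster mixes cell types that differ in Gdf15, since 14.0% of its 50 C1q-rich cells and 59.6% of its other 104 cells held a UMI, so its cells with and without Gdf15 differ in type as well.

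WT proximal tubule-like cells, the only WT class with enough Gdf15-bearing cells, showed fewer members higher. Of 18 measured p53 response genes, 4 were higher in the 210 cells with a Gdf15 UMI than in the 2741 without, where 5.41% of all genes were, and 0 were lower, where 4.82% were. These were Plk2 at 3.52 CPM with and 0.407 CPM without, Phlda3 at 2.35 CPM with and 0.629 CPM without, Btg2 at 3.23 CPM with and 0.962 CPM without, and Cdkn1a at 11.1 CPM with and 4.96 CPM without. All 4 were higher in Kif3aΔTub proximal tubule-like cells with Gdf15 too. The WT count was 2 with cells under 25% mitochondrial UMIs. With a limit of 2 Gdf15 UMIs it was 10, but then rested on fewer Gdf15-bearing cells than the minimum of 50 used elsewhere (34 with 2 to 4 UMIs and 2 with 5 to 9).

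No measured member of the integrated stress response list was higher with Gdf15 in the class that carried most of it, taken as a whole. In Kif3aΔTub principal-like cells the count was 0 of 23, near the 2.58% of all genes that were higher. Of these members 2 were lower, where 4.63% of all genes were. The list's median log2 ratio was −0.04, against −0.01 over all genes. Atf4, the central transcription factor of this response, stood at 43.5 CPM with and 44.8 CPM without a Gdf15 UMI, a log2 ratio of −0.04. The lower members were Nupr1, a stress-induced chromatin protein, at 27.4 CPM with and 46.6 CPM without, and Atf3 at 4.94 CPM with and 7.48 CPM without. The count was 0 of 23 inside cluster 1, where 3.85% of all genes were higher. Inside cluster 2 the count was 0 of 21, or 1 within depth strata, where 4.31% of all genes were higher. In the shallow cluster 9, however, 9 of 14 were higher and 1 lower, where 16.4% of all genes were higher and 20.6% lower. All 21 Atf3 UMIs of the Gdf15-bearing cells in cluster 9 came from 1 cell, and the log2 ratio of Atf3 was −1.88 without it. In Kif3aΔTub proximal tubule-like cells 4 of 22 members were higher, where 7.75% of all genes were, and 0 lower, namely Atf5, Mthfd2, Atf3 and Eif4ebp1, and Atf4 stood at 43.5 CPM with and 40.1 CPM without.

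Thick ascending limb-like cells were the class with the most members of this list higher among the 4 tubule classes, 6 of 22, where 6.85% of all genes were, with 1 lower. Of these, 4 encode enzymes of serine, glycine or asparagine synthesis: Phgdh stood at 63.9 CPM with and 21.8 CPM without, Asns at 20.4 CPM with and 9.003 CPM without, Psat1 at 13.7 CPM with and 7.43 CPM without, and Shmt2 at 14.7 CPM with and 8.10 CPM without. Nupr1 stood at 224 CPM with and 124 CPM without, the opposite direction to principal-like cells, while Atf3 was lower at 31.3 CPM with and 48.8 CPM without. In distal convoluted tubule-like cells 3 of 21 were higher and 1 lower, a share near the 11% of all genes that were higher, with Atf3 at 22.3 CPM with and 7.40 CPM without. In WT proximal tubule-like cells 1 of 20 was higher, near the 5.41% of all genes, and 2 were lower. The difference between classes was not tested.

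**Figure D3:**
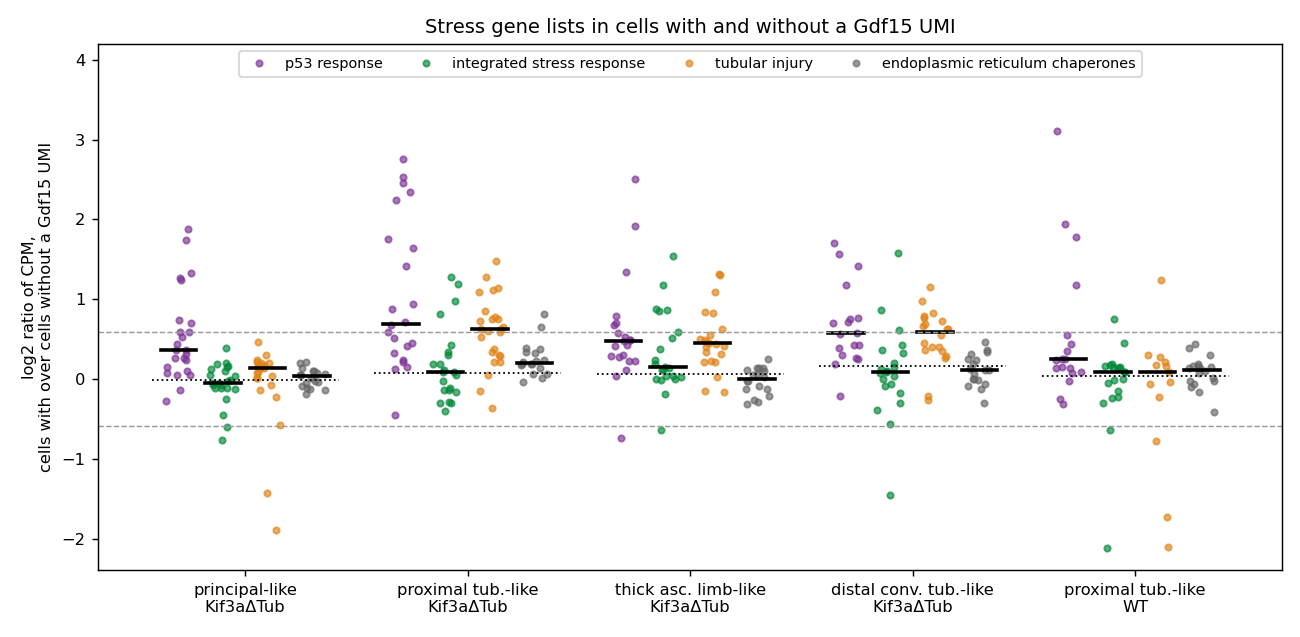
Log2 ratio of the level in cells with a Gdf15 UMI over cells without one (y axis) for each measured member of 4 gene lists, in 4 Kif3aΔTub classes and, at the right, WT proximal tubule-like cells, with black bars for list medians, dotted lines for the median of all genes and dashed lines at 1.5-fold. The p53 response medians lie above those of all genes in each, at 0.37 in principal-like and 0.69 in proximal tubule-like Kif3aΔTub cells, and chaperone genes lie near 0.

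**Figure D4:**
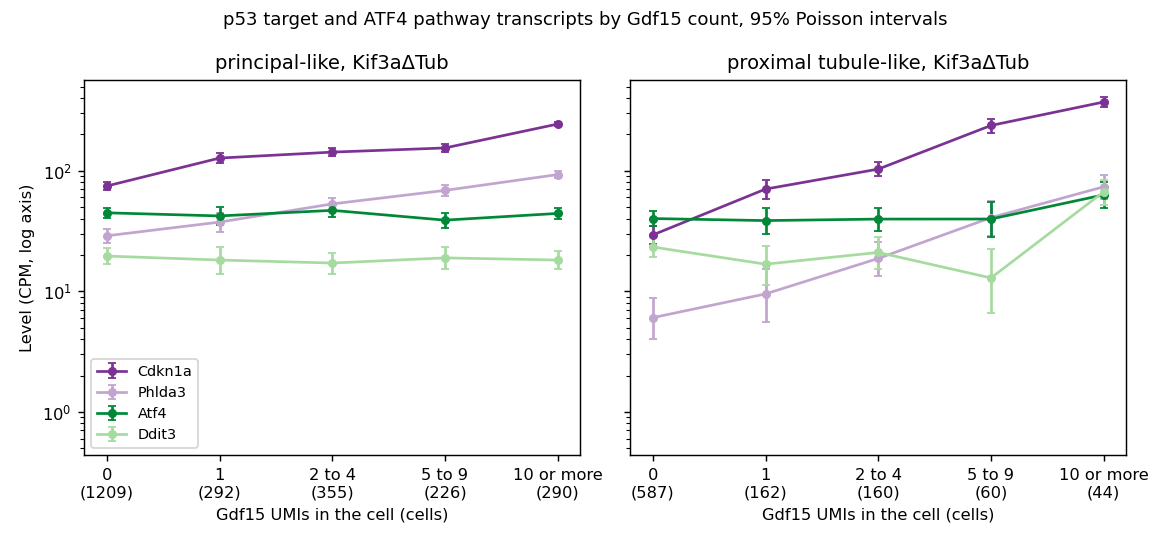
Levels of Cdkn1a, Phlda3, Atf4 and Ddit3 (CPM, log axis, lines for 95% Poisson intervals) in Kif3aΔTub cells grouped by their number of Gdf15 UMIs, with the number of cells in brackets. Cdkn1a climbs in both classes, to 244 CPM in principal-like and 372 CPM in proximal tubule-like cells with 10 or more Gdf15 UMIs, and Atf4 in principal-like cells stays between 38.9 and 46.9 CPM.

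Cdkn1a and Phlda3 climbed with the number of Gdf15 UMIs in principal-like and proximal tubule-like cells, while of these classes Mdm2 climbed only in proximal tubule-like cells. In Kif3aΔTub principal-like cells with 0, 1, 2 to 4, 5 to 9 and 10 or more Gdf15 UMIs, Cdkn1a stood at 74.7, 127, 143, 155 and 244 CPM and Phlda3 at 28.9, 37.5, 53.1, 68.7 and 93.0 CPM. Mdm2 stood at 29.1, 36.3, 35.9, 32.1 and 35.2 CPM there, without a climb, but at 33.4, 35.8, 36.5, 60.2 and 69.8 CPM in Kif3aΔTub proximal tubule-like cells. From first to last step Ccng1 rose from 70.2 to 127 CPM in principal-like and from 114 to 257 CPM in proximal tubule-like cells. In distal convoluted tubule-like cells Cdkn1a stood at 67.6, 87.1, 307, 95.5 and 266 CPM, with no steady order. Over the same steps in Kif3aΔTub principal-like cells, Atf4 stood at 44.8, 42.2, 46.9, 38.9 and 44.3 CPM. Ddit3, which encodes CHOP, stood at 19.6, 18.2, 17.1, 18.9 and 18.2 CPM in these principal-like cells. In Kif3aΔTub proximal tubule-like cells Cdkn1a stood at 29.3, 70.5, 103, 238 and 372 CPM. There Ddit3 stood at 66.9 CPM in the 44 cells with 10 or more Gdf15 UMIs and at 12.9 to 23.3 CPM in the other steps. The phosphate transporter gene Slc34a1, a marker of differentiated proximal tubule, stood at 1935, 1763, 1604, 1405 and 1086 CPM over these steps. Median depth in these proximal tubule-like steps was 5548, 9623.5, 11371, 14334.5 and 23257 UMIs per cell. The principal cell gene Aqp2 stood at 33.9, 22.4, 54.8, 21.5 and 148 CPM over them. The part of depth or of missed doublets in these steps was not tested.

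The summed markers of the segment that names the class were lower in Gdf15-bearing thick ascending limb-like, distal convoluted tubule-like and proximal tubule-like cells, late proximal markers apart. Summed over the 10 thick ascending limb markers, the level was 7371 CPM in Kif3aΔTub thick ascending limb-like cells with and 12955 CPM in those without a Gdf15 UMI. Over the 8 distal convoluted tubule markers it was 2114 CPM with and 3680 CPM without in distal convoluted tubule-like cells. Over the 13 proximal tubule markers it was 5322 CPM with and 6826 CPM without in proximal tubule-like cells, and among these cells the 8 early segment markers stood at 4591 CPM with and 5773 CPM without, and the 9 late segment markers at 996 CPM with and 912 CPM without. In principal-like cells the 11 principal markers went the other way, at 13178 CPM with and 11521 CPM without. Kif3aΔTub distal convoluted tubule-like cells lay almost wholly in cluster 10, which passed 9 connecting tubule and principal markers against 5 distal convoluted ones.

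Tubular injury genes were higher with Gdf15 in 3 of the 4 classes. In Kif3aΔTub proximal tubule-like cells 15 of 25 injury genes were higher in cells with a Gdf15 UMI, where 7.75% of all genes were, and none was lower. The counts were 10 of 20 in distal convoluted tubule-like cells, where 11% of all genes were higher, and 6 of 22 in thick ascending limb-like cells, where 6.85% were, and none was lower. Sox9, a regulator of tubule repair, stood at 106 CPM with and 47.3 CPM without in distal convoluted tubule-like cells, and Vcam1, an adhesion molecule of failed repair, at 11.2 CPM with and 4.50 CPM without in thick ascending limb-like cells. In principal-like cells 0 of 23 were higher, a count near the 2.58% of all genes that were. In this class 2 members, Vim and Cp, were lower, where 4.63% of all genes were. There Lcn2, the injury protein lipocalin 2, stood at 7648, 6641, 7063, 8057 and 9418 CPM in cells with 0, 1, 2 to 4, 5 to 9 and 10 or more Gdf15 UMIs, lowest in cells with 1.

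Immediate early and heat shock genes were higher in 11 of 23 members in Kif3aΔTub proximal tubule-like cells, with 1 lower, where 7.75% of all genes were higher. They were higher in 11 of 24 in distal convoluted tubule-like cells, with 0 lower, where 11% of all genes were higher. In principal-like cells 2 of 26 were higher and 3 lower, where 2.58% of all genes were higher and 4.63% lower. In thick ascending limb-like cells 2 of 25 were higher and 2 lower, near the 6.85% of all genes higher and 4.96% lower. Egr1 stood at 11.6 CPM with and 2.16 CPM without in proximal tubule-like cells, and Klf4 at 170 CPM with and 67.6 CPM without in distal convoluted tubule-like cells. NF-kappaB and cytokine targets were higher in 5 of 12 members in proximal tubule-like cells, with 2 lower, and in 5 of 10 in thick ascending limb-like cells, with 0 lower, against the same 7.75% and 6.85% of all genes. Cxcl2, a neutrophil chemokine, stood at 23.9 CPM with and 1.58 CPM without in thick ascending limb-like cells, but its UMIs among cells with Gdf15 came from 3 cells, 45 of them from 1. Endoplasmic reticulum chaperone genes were higher in 2 of 18 members in proximal tubule-like cells and in 0 of 18 in the other 3 Kif3aΔTub classes, and mitochondrial stress genes in 0 of 10 in all 4. Hmox1, heme oxygenase 1, was the 1 antioxidant member of 16 that was higher in Kif3aΔTub proximal tubule-like cells, a share near the 7.75% of all genes, at 88.5 CPM with and 47.5 CPM without. Hypoxia genes were higher in 2 of 12 members there, with 2 lower, and cell death genes in 0 of 8. In that class 7.75% of all genes were higher and 2.87% lower.

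Genes of cell division were higher with Gdf15 in principal-like and thick ascending limb-like cells. Of 7 measured cycling cell markers in Kif3aΔTub principal-like cells, 6 were higher in cells with a Gdf15 UMI, where 2.58% of all genes were, with a summed level of 36.0 CPM with and 16.5 CPM without. In thick ascending limb-like cells 4 of 4 were higher, where 6.85% of all genes were, at 37.6 CPM with and 11.3 CPM without. That level rests on few cells, since the 30 Cenpf UMIs of cells with Gdf15 lay in 6 cells, 16 of them in 1. In proximal tubule-like cells 1 of 5 was higher, where 7.75% of all genes were, at 19.0 CPM both with and without. Among the 10 genes with the highest lower bound in principal-like cells were Pclaf, Top2a, E2f1 and Dtl, all of DNA replication or mitosis, beside Psrc1, Cdkn1a and Phlda3. Dcn, Ccl5 and Ccl2 of that ranking rested on few cells, and Ccl2 turned to a log2 ratio of −2.45 without its highest cell. In WT proximal tubule-like cells the replication genes Ccne2, Chek1, Lig1, Ung and Uhrf1 were among the 10, with 4 to 12 Gdf15-bearing cells showing each.

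In Kif3aΔTub proximal tubule-like cells the 10 genes were led by Acta1, skeletal muscle actin, at 72.7 CPM with and 0.647 CPM without, of whose UMIs 385 came from 1 cell. Cdkn1a, Btg2, Phlda3, Egr1, Slc4a11, Spaca7, Plaur, Eda2r and Tmem171 followed, each found in 20 to 160 cells with Gdf15. Plaur encodes the urokinase receptor. Macrophage markers in these cells, 5 of 6 measured being higher where 7.75% of all genes were, summed to 468 CPM with and 406 CPM without. Their part in the comparison was not tested.

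Partners needed for processing were present, and the receptor was not detected in the kidney. Gfral gave 0 UMIs in either library, read against a floor of 3 counts in 79060495 UMIs of Kif3aΔTub and in 42468386 UMIs of WT. Ret gave 3 UMIs in Kif3aΔTub and 5 in WT, all 5 in endothelium-like cells. The related GDNF co-receptor gene Gfra4 stood at 4.604 (4.14 to 5.10) CPM in Kif3aΔTub and 1.53 (1.18 to 1.95) CPM in WT, mostly in intercalated-like and principal-like cells. Within these classes Gfra4 showed no such rise. It stood at 7.06 CPM in Kif3aΔTub and 11.0006 CPM in WT principal-like cells. In intercalated-like cells it stood at 14.8 CPM in Kif3aΔTub and 14.04 CPM in WT. Principal-like cells made up 33.6% of Kif3aΔTub cells and 3.71% of WT cells. The part of class make-up in the library difference was not tested. Gfra1 gave 36 UMIs in Kif3aΔTub and 14 in WT, Gfra2 gave 10 and 3, and Gfra3 gave 0 in both.

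Furin, a convertase of the secretory pathway, stood at 68.6 CPM in Kif3aΔTub cells and 83.1 CPM in WT cells. In principal-like cells it was 72.2 CPM in Kif3aΔTub and 71.5 CPM in WT, and in proximal tubule-like cells 75.3 CPM in Kif3aΔTub and 92.9 CPM in WT. The related convertases Pcsk5 (6.69 CPM in Kif3aΔTub and 13.4 CPM in WT), Pcsk6 (0.417 CPM in Kif3aΔTub and 2.80 CPM in WT) and Pcsk7 (19.8 CPM in Kif3aΔTub and 16.9 CPM in WT) were lower than Furin. Mmp14, a membrane metalloproteinase, stood at 39.9 CPM in Kif3aΔTub and 2.26 CPM in WT, and Ltbp1, a latent TGF-beta binding protein, at 6.11 CPM in Kif3aΔTub and 2.14 CPM in WT.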

How the data were processed

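The authors deposited a filtered matrix of raw UMI counts per gene and barcode for each library. Counts came from Cell Ranger 3.1.0 per the file headers, while the submitters' processing notes name Cell Ranger 3.0.2, Seurat 3.1.1 and mm10. No annotation table of cells was used, and 0 columns belong to samples not analysed here.

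Passing barcodes had 500 UMIs or more, 200 genes or more and a mitochondrial share under 50%, which left 7236 of 7950 in Kif3aΔTub and 4371 of 6938 in WT. Scrublet, run on each library in scanpy 1.11.5, removed 170 Kif3aΔTub and 54 WT doublets. Kept cells held 79060495 UMIs in Kif3aΔTub and 42468386 in WT. Counts were log-normalised to 10000 per cell, and variable genes (2000 per library, without Gdf15, the list genes and mitochondrial genes, 1945 used), 30 components and a graph of 15 neighbours fed Leiden clustering (resolution 1, seed 0) of both libraries together, with no integration. A cluster took a type's name, written X-like, with at least 3 of its markers reaching 50 CPM and 20 UMIs and standing 2-fold above the other clusters' median, more of its markers among the 10 leading genes than any other type, and under 3 of a rival. Names were thus set by a rule made once clusters were known, and the markers, lists and other choices were made with earlier results of these data known.

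UMI sums were divided by class totals (CPM). Poisson, Clopper-Pearson and exact conditional binomial intervals at 95% were used, with 0.5 UMIs added in log2 ratios, tested genes needing 20 UMIs, and a floor of 3 counts where a sum was 0. Library ratios needed 100 cells of a class in each library, and comparisons of cells with and without Gdf15 needed 50 of each. The ratio method was checked only on simulated Poisson counts. Those counts lack the uneven spread between cells seen here, so that check cannot show how the intervals do under it. Genes were named if among the 10 most like Gdf15 (200 UMIs or more), the 10 highest lower bounds, or up to 4 list members with the largest ratios. Genes named beyond these, among them Mdm2, Ccng1, Atf4, Ddit3, Lcn2 and Slc34a1, were chosen after their values were seen. edgeR 4.0.16 gave only the TMM factors of 1 alternative. Positions are from GENCODE vM21. Alternatives are in the closing section.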

Additional observations from a re-analysis of the deposited data

Results flagged for a closer look

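Endothelium-like cells went against every other class compared: their Gdf15 log2 ratio of Kif3aΔTub over WT was −1.92, with 6.83 CPM in Kif3aΔTub and 26.2 CPM in WT, while the other 5 classes lay above 0. This difference between classes was not tested, the WT UMIs lay in 4 cells, and the sign turned when doublets were kept.

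Barcodes left out for 50% or more mitochondrial UMIs held Gdf15 at 28.0 (22.3 to 34.7) CPM in 706 Kif3aΔTub barcodes and at 2.43 (1.76 to 3.28) CPM in 2564 WT barcodes. Barcodes called doublets stood at 165 (150 to 181) CPM in Kif3aΔTub and 6.30 (2.04 to 14.7) CPM in WT.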

How the results depend on the processing

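Of the recomputed values, 132 stayed as reported, 26 moved and 1 reversed: the endothelium-like ratio, 0.55 with doublets kept. The distal convoluted ratio was 4.18 with cells under 25% mitochondrial UMIs. The principal-like ratio was 2.37 with cells thinned, 2.65 without the top 1% of cells and 2.71 without the highest cell (added after seeing the data). The proximal ratio was 4.01 under 25% mitochondrial UMIs, 3.53 with doublets kept, when only 183 Kif3aΔTub cells kept the name, 3.99 with median-of-ratios and 3.95 with TMM factors. The cause was not tested.

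With a limit of 2 UMIs the shares of cells were 12.9% (principal-like), 6.76% (proximal), 3.22% (ascending limb) and 3.27% (distal convoluted) of Kif3aΔTub cells, and at 1000 UMIs 18.8% and 13.4% in the first 2, because a stricter limit or less depth counts fewer cells. Shares of a library's Gdf15 were 56.5% (principal-like) and 0.444% (proximal) in Kif3aΔTub with doublets kept. Under 25% mitochondrial UMIs they were 9.81% (proximal, Kif3aΔTub), 45.4% (proximal, WT) and 30.6% (principal-like, WT).

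Thick ascending limb p53 genes higher were 10 within depth strata. In WT proximal cells all list genes higher were 34 with at least 2 Gdf15 UMIs (under 50 such cells) and 16 with genes of at least 5 UMIs, p53 genes 10 and 8, and 2 under 25% mitochondrial UMIs, and integrated stress genes 5 with at least 2 Gdf15 UMIs. The distal class could not be compared with each library clustered alone (369 Kif3aΔTub and 0 WT cells). No paired analysis was possible because each genotype has 1 library. Small classes are limited by depth.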
